A study of Mus musculus with 2 samples.

Results

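The parvins and the complex of ILK, PINCH and parvin were followed in single mouse fibroblasts sorted by a circadian reporter. The 6 genes are the 3 parvins Parva, Parvb and Parvg, the pseudokinase gene Ilk, the PINCH gene Lims1 and the PINCH-binding gene Rsu1, of 33757 features in the count table. They were taken by gene symbol, and the set was chosen by the rise of Parvg counts with the Venus reporter in these same cells. Its rise is therefore described here without a test, while the other 5 genes were tested as its partners.

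Cells came from NIH3T3-Rev-VNP1-H2B-iRFP, an NIH3T3 mouse fibroblast line in which Venus reports on Nr1d1, a repressor of the circadian clock, and iRFP is fused to histone H2B. All cells shared this line, grew unsynchronized to 95% confluency over about 5 days, and received no treatment. On each of 2 plates, 4 Venus gates of 96 cells were sorted, here numbered 1 (dimmest) to 4 (brightest), and full-length RNA was sequenced from each cell. Plate 1 held the High RFP sort and plate 2 the Low RFP sort, so plate and H2B-iRFP level cannot be told apart. A gate took 6 columns of wells, at the same place on either plate, so gate and position cannot be told apart either. The labels do not say whether the line is 1 clone or whether the plates came from separate cultures, so p-values measure the spread between 2 plates of sorted cells, which may be technical.

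ILK binds the cytoplasmic tails of beta integrins and joins 1 PINCH and 1 parvin into a stable trio that links focal adhesions to actin. PINCH-1, the product of Lims1, binds ILK through its LIM domains and carries Rsu1, a leucine-rich repeat protein, on its far end. Alpha-parvin (Parva) is widespread, beta-parvin (Parvb) is prominent in muscle, and gamma-parvin (Parvg) is best known from blood cells. The parvins compete for the same ILK site, and each binds actin or its partners through calponin homology domains.

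After filtering, 762 cells remained with 151173 to 1618022 counts each, in 8 sums of 94 to 96 cells. Intervals of shares and of plate ratios cover counting error only, and reads amplified by PCR are not independent molecules unless molecular identifiers were counted, which is not given in the sources used here. Intervals of trends come from the spread between the 8 sums. The fibroblast label was checked against 10 markers: all were found in over 10% of cells, and Col1a1 was in 100% of them. Along the Venus gates 3 of the 10 were higher and 5 were lower in the edgeR test, where 6.78% and 8.64% of all genes were. The higher ones were Vim at 0.11, Sparc at 0.08 and S100a4 at 0.07 log2 per gate. The lower ones included Fn1 (fibronectin) at -0.26 and Col1a1 at -0.14 log2 per gate. Thy1, a surface glycoprotein common on fibroblasts, was found in the fewest, 51.8% of cells. Of 15 blood-cell markers, Laptm5 and Fcer1g were not matched to a feature, and 4 were found in over 10% of cells. These were Lyz2 in 53.0%, Coro1a in 35.7%, Itgb2 in 27.8% and Cd68 in 11.2%. Ptprc (CD45), the defining marker of blood cells, gave 1 count in all cells together, and Tyrobp and Vav1 gave 2 each. The sum over the blood list ran from 11.2 to 13.9 CPM (counts per 1000000 counts of the cell or sum) in gates 1 to 3 and from 15.4 to 20.02 in gate 4. Of 7 blood markers that could be tested, 1 was higher toward bright Venus, where 6.78% of all genes were. It was the lysozyme gene Lyz2, at 0.22 ± 0.05 log2 per gate (edgeR adjusted p = 0.0276). Of 4 endothelial markers, Kdr was not matched to a feature, 0 were found in over 10% of cells and 0 of 3 tested were called. Of 4 epithelial markers, Cdh1 was in 43.4% of cells, and 0 of 2 tested were called. Over all genes 15.4% were called. The part of these lists in the Parvg values was not tested.

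The start-site windows of Parvg are shown because its level follows a clock reporter and clock factors act through short promoter elements. They come from the RefSeq promoter table of build GRCm38.p6, on the plus strand, whereas the submitters' processing notes name GRCm39 for the counts. The first lies at chr15:84324470-84324645, ahead of the first annotated exon near that start. The second lies at chr15:84325869-84326118, directly before a start that is inside the gene and within an intron of transcripts that begin upstream.
Parvg start 1: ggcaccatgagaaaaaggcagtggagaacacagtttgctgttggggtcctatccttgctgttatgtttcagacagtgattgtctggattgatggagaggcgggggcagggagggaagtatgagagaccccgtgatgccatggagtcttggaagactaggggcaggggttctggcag
Parvg start 2: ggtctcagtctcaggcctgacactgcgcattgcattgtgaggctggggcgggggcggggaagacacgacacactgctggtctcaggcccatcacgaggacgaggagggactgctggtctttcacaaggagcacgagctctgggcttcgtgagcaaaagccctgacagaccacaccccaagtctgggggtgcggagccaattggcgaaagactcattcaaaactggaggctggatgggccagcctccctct

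A set of 3 clock elements were searched on both strands in the whole windows, from 250 bases before to 50 after each start: the E-box CACGTG, the D-box TTATGTAA and the RORE half-site AGGTCA. Neither Parvg window holds any of these letter strings. Among all 32851 windows in the table, 7.15% hold the E-box, 0.938% the D-box and 16.3% the RORE half-site. Of the other genes, 1 of 2 Ilk windows and 1 of 3 Lims1 windows hold an E-box, given here in capitals, and the single windows of Parvb and Rsu1 hold none of the 3.
Ilk: tacgctctggccCACGTGcagcgcgcgtca
Lims1: cttattggtgacCACGTGggccagtgtggg
The Ilk stretch lies at chr7:105736428-105736457 and the Lims1 stretch at chr10:58371317-58371346. Both come from the plus strand of GRCm38.p6. Parva has no window among those listed, so it was not searched. A match is a description of letters, and whether a clock element acts on any of these genes was not tested.

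Parvg was low or not detected in the dimmest cells and detected in most of the brightest. On plate 1, the summed level of Parvg (ENSMUSG00000022439.10) was 1.30 CPM in gate 1, 6.05 in gate 2, 7.38 in gate 3 and 14.4 in gate 4. On plate 2 it was 3.53, 5.84, 12.6 and 14.2 CPM in the same order. Each plate rose at every step, and gates 1 and 4 did not overlap, while gate 2 of plate 1 and gate 3 of plate 1 lay close together. As means over the plates, gates 1 to 4 stood at 2.42 ± 1.58, 5.94 ± 0.15, 10.0 ± 3.70 and 14.3 ± 0.15 CPM (SD, n = 2 plates).

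The level in gate 4 was 11.1 times that in gate 1 on plate 1 and 4.03 times on plate 2. Over both plates the fitted trend was 0.85 ± 0.11 log2 per gate (standard error), with 1.04 on plate 1 alone and 0.70 on plate 2 alone. In the joint fit the first step was the largest, at 1.39 ± 0.34 log2 from gate 1 to gate 2, followed by 0.68 ± 0.32 and 0.54 ± 0.31, and the later pair of steps differ by less than their standard errors. Without gate 1 the trend was 0.61 log2 per gate. The first step was not the largest on each plate: on plate 2 alone the level grew 1.65-fold from gate 1 to gate 2 and 2.16-fold from gate 2 to gate 3.

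**Figure D1:**
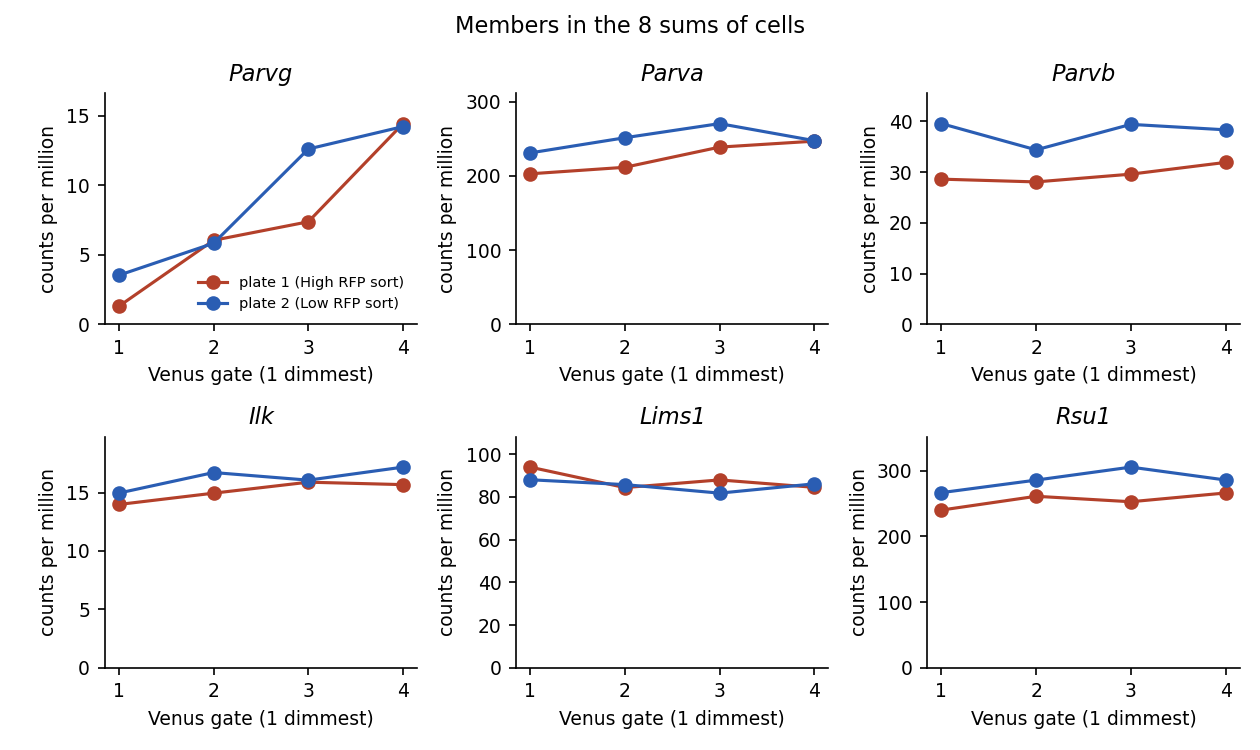
CPM of the 6 genes (vertical axis, from 0) in each sum of cells, against the Venus gate, with 1 point per plate and gate. Parvg climbs from 1.30 and 3.53 in gate 1 to 14.4 and 14.2 in gate 4, while the other 5 genes stay within 1.41 times between their lowest and highest sums.

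The rise of Parvg lay mostly in how many cells gave a Parvg count. Here a cell with Parvg means a cell with a count, and whether cells without a count lack the transcript was not tested. On plate 1, 9 of 95 cells in gate 1 had a Parvg count, which is 9.47% (exact binomial 95% interval 4.42% to 17.2%). The shares in gates 2, 3 and 4 of that plate were 38.5%, 42.7% and 81.2%, the last being 78 of 96 cells (72.0% to 88.5%). On plate 2 the shares were 27.4%, 47.9%, 72.9% and 80.9%, from 26 of 95 cells (18.7% to 37.5%) to 76 of 94 cells (71.4% to 88.2%). These intervals cover counting error among the cells of 1 plate. Because Parvg was chosen for its rise with Venus, the distance between gates 1 and 4 is no test of it. In all, 382 of 762 cells (50.1%) had a count.

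Among cells with a count, the level of Parvg changed less between gates than the share did. Their mean level on plate 1 was 13.2, 16.0, 17.3 and 17.997 CPM over gates 1 to 4, and on plate 2 it was 13.2, 13.0, 17.4 and 17.6 CPM. Their medians were 10.4, 14.3, 15.3 and 16.5 CPM on plate 1 and 10.3, 7.95, 14.5 and 13.5 CPM on plate 2. From gate 1 to gate 4 the share grew 8.58-fold on plate 1 and 2.95-fold on plate 2, whereas the mean level among cells with a count grew 1.37-fold and 1.33-fold. On the log2 scale the share made up 87.3% of the rise of the mean on plate 1 and 79.3% on plate 2. The median cell had 0 CPM in gates 1 and 2 of both plates and in gate 3 of plate 1, and 11.5 and 11.98 CPM in gate 4 of plates 1 and 2.

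The order of the gates held at equal depth. When every cell was thinned to 300000 counts, 754 cells remained and the Parvg share ran 6.32%, 36.5%, 40.6% and 75.0% on plate 1 and 21.1%, 41.9%, 67.7% and 77.7% on plate 2. All 8 cells left out were in gate 2 of plate 2. The change from gate 1 to gate 4 after thinning was 62.6 ± 8.54 percentage points (SD, n = 2 plates). Counting only cells with at least 3 thinned counts gave 45.2 points, and with at least 10 it gave 10.5.

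Measures of spread across cells follow in part from the share of cells with a count, so they are no separate evidence. In gate 1 of plate 1, the top 10% of cells held 100% of the Parvg signal, because only 9.47% of cells there had a count. In gate 4 the top 10% held 28.3% on plate 1 and 32.6% on plate 2. The highest single cell reached 45.2 CPM in gate 1 and 49.2 CPM in gate 4 of plate 1. The coefficient of variation across cells fell from 4.73 to 0.903 on plate 1 and from 2.41 to 0.954 on plate 2.

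**Figure D2:**
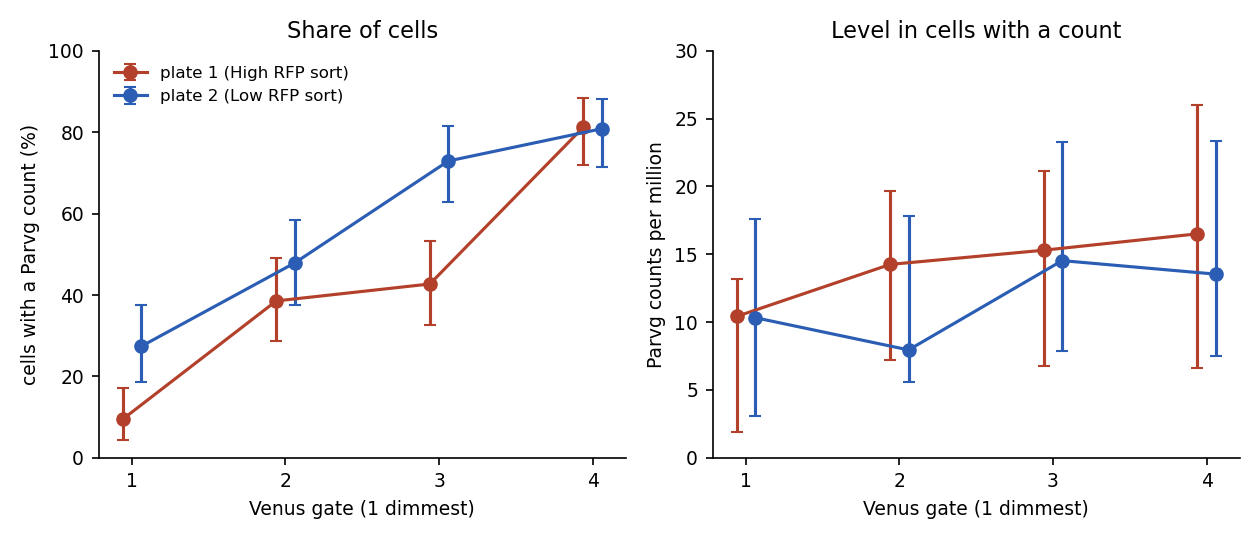
Left, percentage of cells with at least 1 Parvg count by Venus gate and plate, with exact binomial 95% intervals. Right, median Parvg CPM among those cells, with bars from the 25th to the 75th percentile. The share climbs from 9.47% and 27.4% to 81.2% and 80.9%, while the bars on the right overlap in all gates.

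Recorded Venus fluorescence was also cut into 8 equal parts of cells within each plate. On plate 1 the Parvg share was 10.4% in the dimmest part, 31.2% in the third, 39.6% in the fourth, 31.9% in the fifth, 54.2% in the sixth and 83.3% in the seventh, and 79.2% in the brightest. On plate 2 it climbed from 16.7% to 80.9% by the sixth part and stood at 81.2% in the brightest. The counting intervals of the top 2 parts of plate 1, and of the top 3 of plate 2, overlapped.

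Inside the gates, Parvg had no single relation with the reporter. Spearman correlations across cells describe this here, without a test, because cells of a plate share their library. Over a whole plate Parvg correlated with the reporter transcript (the YFP feature) at 0.470 on plate 1 (383 cells) and 0.458 on plate 2 (379 cells). With cells ranked within their gate the values were 0.071 and 0.161, but these pool gates that differ in sign. On plate 2 the correlation was 0.389 in gate 1, 0.109 in gate 2, 0.447 in gate 3 and -0.276 in gate 4. On plate 1 it was 0.195, 0.093, 0.142 and -0.069 in the same order. With recorded Venus fluorescence, gate 3 gave 0.303 on plate 1 and 0.233 on plate 2, and gate 4 gave -0.108 and -0.072. For Nr1d1 itself they went from 0.457 and 0.436 over the plate to 0.050 and 0.099 within gates. These values also pool gates that differ in sign: gates 3 and 4 gave 0.173 and -0.103 on plate 1, and 0.389 and -0.261 on plate 2. Correlations of Parvg with the total count of a cell were -0.051 and -0.011 within gates on plates 1 and 2. In single gates they ran from -0.144 to 0.128.

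The partners did not follow the same course. Of the 5 genes, 0 passed the edgeR test of the Venus trend after Benjamini-Hochberg adjustment over all 18430 genes tested, where 15.4% of genes did. At an unadjusted p under 0.05 there was 1 of 5, Parva. The share of all genes under that unadjusted threshold was not counted, so this does not set Parva apart. DESeq2 also called 1 of 5, again Parva, where it called 25.2% of genes. Between neighbouring gates 0 of 5 passed as well, where 0.271%, 0.0651% and 0.26% of genes did for the steps to gates 2, 3 and 4. All 6 genes passed the filter on low counts, and their values follow by role.

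Ilk, the scaffold at the centre of the complex, had 13.98, 14.95, 15.89 and 15.68 CPM over gates 1 to 4 of plate 1. On plate 2 it had 14.96, 16.71, 16.06 and 17.18 CPM. The lowest values were in gate 1 on both plates, but gates overlapped between plates. Its trend was 0.04 ± 0.03 log2 per gate (edgeR adjusted p = 0.423), with an interval from -0.05 to 0.13. Ilk was found in 757 of 762 cells. Its locus overlaps Taf10 and Rrp8 in the RefSeq table, and with the use of strand in counting not given in the sources used here, reads of overlapping parts cannot be told apart.

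Lims1, the PINCH partner of ILK, ran the other way in sign. Plate 1 gave 93.9, 84.3, 87.9 and 84.5 CPM, and plate 2 gave 88.0, 85.7, 81.7 and 86.1 CPM. Gate 1 was the highest on each plate, but gate 3 of plate 1 lay level with gate 1 of plate 2. The trend was -0.05 ± 0.02 log2 per gate (edgeR adjusted p = 0.172), with an interval from -0.11 to 0.02. Lims2, the second PINCH gene, was sparse, in 60.4% of cells at 6.78 to 10.6 CPM, with a trend of -0.03 ± 0.05 (edgeR adjusted p = 0.765).

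Rsu1, which binds PINCH-1, was in all 762 cells. It stood at 240, 261, 253 and 266 CPM on plate 1 and at 267, 286, 306 and 286 CPM on plate 2. The gates overlapped, and the trend was 0.02 ± 0.02 log2 per gate (edgeR adjusted p = 0.463), with an interval from -0.04 to 0.08. Without gate 1 its sign turned, to -0.016.

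Parva, the main parvin of most tissues, came nearest to passing. Its levels were 203, 212, 239 and 247 CPM on plate 1 and 231, 251, 270 and 248 CPM on plate 2. Plate 1 rose at every step, while plate 2 rose to gate 3 and fell back in gate 4. The trend was 0.05 ± 0.02 log2 per gate (edgeR adjusted p = 0.0977), with an interval from -0.01 to 0.12. This interval includes 0 although the unadjusted edgeR p was 0.0215, because it uses only the 3 residual degrees of freedom and the test uses more. DESeq2 (adjusted p = 0.0268) and limma on mean log values (adjusted p = 0.0318) put it past the threshold. DESeq2 and limma called 25.2% and 18.8% of all genes they tested. Over 13 other alternatives with a test the adjusted p was at least 0.0520.

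Parvb, the neighbour of Parvg on chromosome 15, had 28.6, 28.1, 29.6 and 31.9 CPM on plate 1 and 39.6, 34.4, 39.4 and 38.4 CPM on plate 2. Its 4 values on plate 2 all lay above its 4 values on plate 1. The trend was 0.01 ± 0.02 log2 per gate (edgeR adjusted p = 0.778), with an interval from -0.06 to 0.09. The plate difference, 1.29-fold over all gates (counting interval 1.25 to 1.32), was larger than its spread between gates within either plate. Parva, Ilk and Rsu1 were also higher on plate 2 in 4 of 4 gates, at 1.11-fold, 1.07-fold and 1.12-fold over the plates. Parvg and Lims1 were higher there in 2 of 4. With 1 plate per iRFP sort these differences have no replicate check. How many of all genes differ as regularly between the plates was not counted, so these counts do not set the members apart. Mitochondrial counts, which are part of the CPM total, had a median of 9.27% on plate 1 and 7.42% on plate 2.

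Levels per length of exon, which allow genes to be compared, put Rsu1 highest at 29.1 CPM per kilobase as a mean over the sums. Parva followed at 23.4, Lims1 at 17.7, Parvb at 7.64 and Ilk at 5.71. Parvg stood lowest among the 6 at 2.65, between 0.421 in gate 1 of plate 1 and 4.68 in gate 4 of that plate. In gate 4 Parvg thus stayed below the lowest sum of Ilk (5.09) and of Parvb (6.36). The ranges over the sums of Rsu1 (25.8 to 32.9) and Parva (19.97 to 26.6) overlapped, whereas those of Parva and Lims1 (16.7 to 19.2) did not.

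Genes beside Parvg on the chromosome did not share its rise. Samm50, which encodes a mitochondrial outer membrane assembly factor, had a trend of 0.04 ± 0.02 log2 per gate (edgeR adjusted p = 0.169), and Prr5 had one of -0.0001 ± 0.05. Shisal1, the next gene after Parvg, gave 15 counts in all cells together. Pnpla3 and Rtl6 were not matched to a feature and are not analysed here.

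A list of 47 further integrin adhesion genes was examined beside the 6, and 45 of them could be tested. Of these, 3 were higher and 10 were lower toward bright Venus, which is 28.9% called, against 15.4% of all genes (6.78% higher and 8.64% lower). The median trend over the list was -0.04 log2 per gate, against 0.0005 over all genes. Without gate 1 the count was 2 and without gate 4 it was 4, while over all genes it went from 2843 to 1139 and 358.

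Integrins and their activators held 2 of the falls among 6 tested. Itgb3, the beta-3 integrin subunit, averaged 18.4 ± 0.50 CPM in gate 1 and 10.9 ± 0.93 in gate 4 (SD, n = 2 plates), a trend of -0.26 ± 0.03 log2 per gate (edgeR adjusted p = 0.00367). Fermt2 (kindlin-2), which binds beta integrins and ILK, averaged 79.5 ± 0.58 CPM in gate 1 and 59.6 ± 0.94 in gate 4. Its trend was -0.16 ± 0.02 (edgeR adjusted p = 0.00495), and its gates 1 and 4 did not overlap. Tln1 (talin-1) had a trend of -0.04 ± 0.02 (edgeR adjusted p = 0.276). Fermt3, the kindlin of blood cells, had a mean trend of -0.06 ± 0.21 and was in 7.22% of cells.

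Among binding partners of the complex, 3 of 11 tested fell and 1 rose. Nck2, the adaptor that binds a LIM domain of PINCH-1, gave 44.6, 34.4, 27.7 and 25.1 CPM on plate 1 and 64.4, 37.7, 40.8 and 33.7 CPM on plate 2. Gate 1 was the highest on each plate, and the trend was -0.29 ± 0.04 log2 per gate (edgeR adjusted p = 0.00294). Tgfb1i1 (Hic-5), a paxillin relative, had a trend of -0.15 ± 0.03, and Arhgap31, a Rac and Cdc42 GTPase-activating protein, rose by 0.10 ± 0.02 log2 per gate. Pxn (paxillin), which binds parvins, had 0.02 ± 0.03, and Arhgef7 (beta-PIX), which also binds them, had 0.03 ± 0.03, and neither passed (edgeR adjusted p = 0.668 and 0.585). Arhgef6 (alpha-PIX) did not reach the test.

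Scaffolds and kinases gave 5 falls and 2 rises among 22. Lasp1 (-0.11 ± 0.02) and Flna (filamin A, -0.10 ± 0.02), both actin binding, fell. Bcar1 (p130Cas), a scaffold phosphorylated at adhesions, rose from 46.6 ± 1.54 CPM in gate 1 to 65.8 ± 1.55 in gate 4 (0.12 ± 0.02 log2 per gate, edgeR adjusted p = 0.0137), and Trip6 rose by 0.08 ± 0.02.

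**Figure D3:**
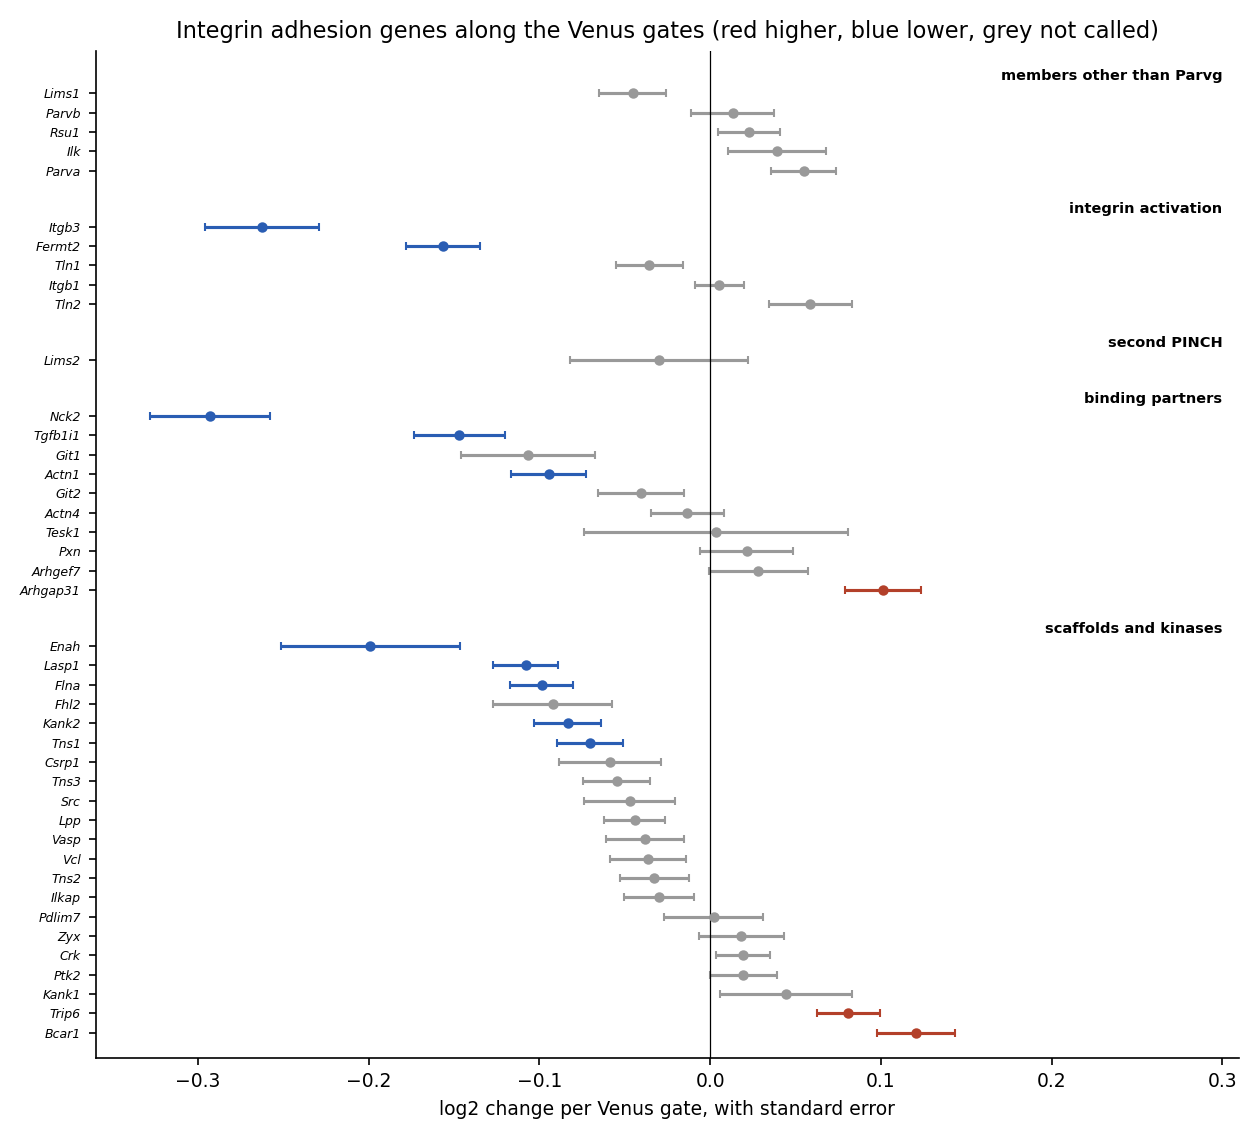
Log2 change per Venus gate with its standard error (horizontal axis) for the 5 partners of Parvg and 37 listed adhesion genes whose mean log2 CPM was 0 or more, coloured by the edgeR call. The partners sit between -0.0453 for Lims1 and 0.0547 for Parva, while Nck2 and Itgb3 lie farthest to the left.

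Across single cells, the genes most like Parvg were not its partners. Among 13556 genes found in at least 10% of cells, Scrn1, a member of the secernin family, came first, with a mean Spearman correlation over the plates of 0.664 over the whole plate and 0.497 within gates. Cox6c, a subunit of cytochrome c oxidase, came next (0.616 and 0.466). Over whole plates Nqo1, Sub1 and Cox7b followed, and within gates Gstm2, Rps4x and Prdx4 followed. Of the partners within gates, Rsu1 (0.229 on plate 1 and 0.290 on plate 2) and Parva (0.177 and 0.233) stood at places 138 and 343 of the 13556 genes, whose median was -0.001 and whose 99th percentile was 0.260. Parvb, at place 566, was uneven, at 0.269 and 0.080, Ilk was near 0 (-0.019 and 0.025), and Lims1 was negative (-0.272 and -0.205), at place 13368. Among cells with a Parvg count alone, Parva turned to -0.066 and -0.112 and Rsu1 stood at 0.027 and 0.043. For Parva and Rsu1 the positive correlation was thus smaller or turned in sign once only cells holding Parvg were compared.

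The lowest of the 13556 genes within gates was Thy1, at -0.575 on plate 1 and -0.553 on plate 2. Because it is also the fibroblast marker missing from many cells, Parvg was set beside it, a choice made after these values were seen. Of 367 cells without a Thy1 count, 321 had Parvg, which is 87.5% (exact binomial 95% interval 83.6% to 90.7%). Of 395 cells with Thy1, 61 had it, which is 15.4% (12.02% to 19.4%). Median depth was alike, at 843872 and 842951 counts, and thinning gave 80.0% and 13.9%.

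Thy1 was picked by its correlation within gates on both plates, so a contrast inside the gates follows from that choice. The counts are given by gate as a description. On plate 1, cells without Thy1 had Parvg in 4 of 9, 28 of 31, 37 of 44 and 67 of 71 cells over gates 1 to 4. Cells with Thy1 had it in 5 of 86, 9 of 65, 4 of 52 and 11 of 25. On plate 2 the counts without Thy1 were 20 of 31, 38 of 44, 62 of 68 and 65 of 69, and with Thy1 they were 6 of 64, 7 of 50, 8 of 28 and 11 of 25. In gates 2 to 4 the share without Thy1 lay between 84.1% and 94.4%, with overlapping intervals. In gate 1 it was lower, at 44.4% on plate 1 and 64.5% on plate 2. With Thy1, the share was 44.0% in gate 4 of each plate and at most 28.6% elsewhere.

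Cells without Thy1 themselves became more common with Venus, and Thy1 fell by 0.45 ± 0.07 log2 per gate (edgeR adjusted p = 0.00844). Its summed level did not follow its share at each step: on plate 1 it was 85.5, 87.6, 92.05 and 31.1 CPM over gates 1 to 4, and on plate 2 it was 74.1, 71.2, 41.1 and 31.2 CPM. Cells without Thy1 made up 9.47%, 32.3%, 45.8% and 74.0% of gates 1 to 4 on plate 1, and 32.6%, 46.8%, 70.8% and 73.4% on plate 2. These shares run close to the Parvg shares in the same gates on both plates. Because Thy1 was picked by its correlation with Parvg in these same cells, this closeness is a description and no separate evidence. When the share of cells without Thy1 was held equal across gates by weighting, the Parvg share still rose from gate 1 to gate 4 by 42.9 points on plate 1 and 31.9 on plate 2. The unweighted rises were 71.8 and 53.5 points. Whether the makeup of the gates accounts for any part of these rises was not tested.

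**Figure D4:**
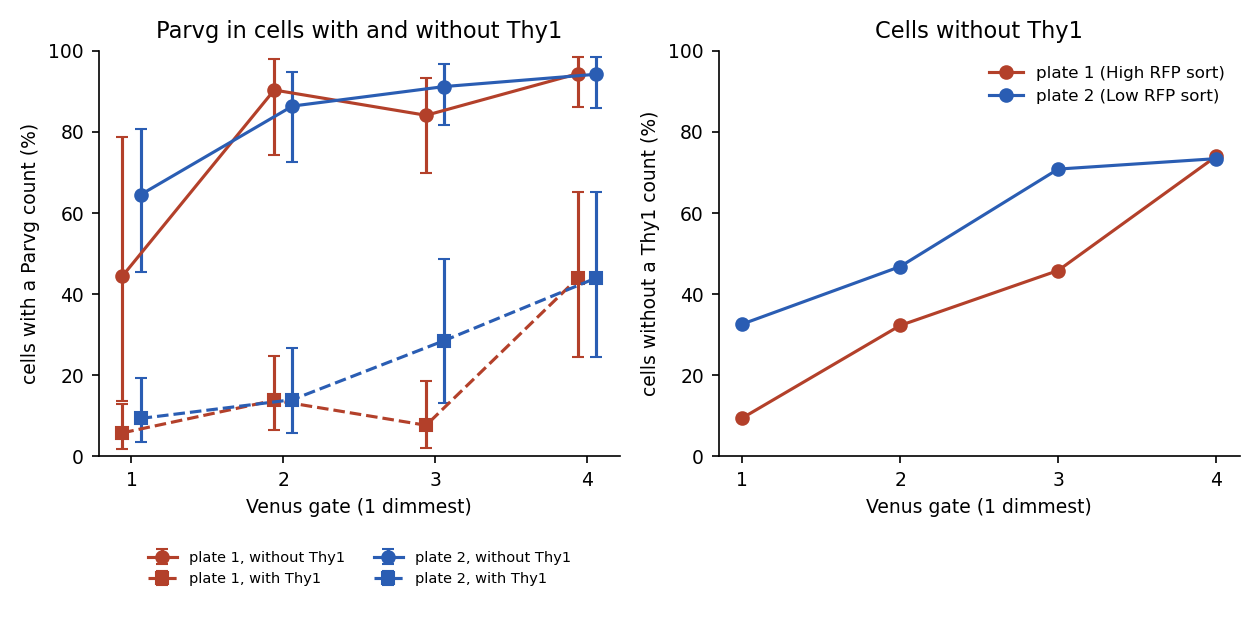
Left, percentage of cells with a Parvg count among cells without Thy1 (circles, solid) and with Thy1 (squares, dashed), by Venus gate and plate, with exact binomial 95% intervals. Right, percentage of cells without a Thy1 count. Circles lie above squares in all 8 plate and gate pairs, and the right panel climbs from 9.47% and 32.6% to 74.0% and 73.4%.

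Scrn1, the highest gene of the ranking within gates and so also picked by these values, split the cells in a like way. Of 343 cells with a Scrn1 count, 306 had Parvg (89.2%), and of 419 without it, 76 had Parvg (18.1%). In gate 3 of plate 1, for example, 37 of 45 cells with Scrn1 had Parvg and 4 of 51 cells without it did.

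Partners of Parvg also differed between cells with and without Thy1, by small amounts. Parva was higher without Thy1 in 8 of 8 plate and gate pairs, at a mean of 264 ± 18.3 CPM against 218 ± 13.5 (SD over 8 pairs, 4 from each of 2 plates, so not 8 independent samples). Rsu1 was higher in 8 of 8, at 299 ± 18.8 against 244 ± 16.98 CPM. Lims1 was higher in 0 of 8, at 77.9 ± 1.97 against 95.8 ± 6.58 CPM. Parvb was higher in 7 of 8 pairs and Ilk in 6 of 8, with median log2 differences of 0.40 and 0.09. How many of all genes differ as regularly between these classes was not counted, so these counts do not set the partners apart. Ranked within gates and within these classes, Parvg correlated with Parva at 0.051 and -0.016 and with Rsu1 at 0.024 and 0.056 on plates 1 and 2, well below the values within gates alone. Lims1 kept a negative sign, at -0.159 and -0.034.

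The genes that followed Parvg across cells were unevenly spread over the chromosomes. Among 7490 genes found in at least 90% of cells and ranked within gates, the median correlation was 0.130 for 328 genes of chromosome 15, which carries Parvg and Parvb, and 0.104 for 199 genes of the X chromosome. The other chromosomes lay between -0.098 and 0.051. On chromosome 15, 88.7% of the genes had a positive value, while on chromosome 16 14.9% did and on chromosome 4 13.0% did. Chromosome 15 held 32 and X held 15 of the 100 genes most like Parvg, in the wider ranking of genes found in at least 10% of cells, in which they carry 4.08% and 3.51% of the genes placed on a chromosome. Along X in RefSeq order, the first 99 genes had a median of 0.020 and the last 100 had 0.178. Both plates gave this order for chromosomes 15 and X. The points share cells, libraries and depth, so these values are a description, chosen after the correlations were seen. What sets the 2 classes of cells apart, and its part in the rise of Parvg with Venus, was not tested.

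**Figure D5:**
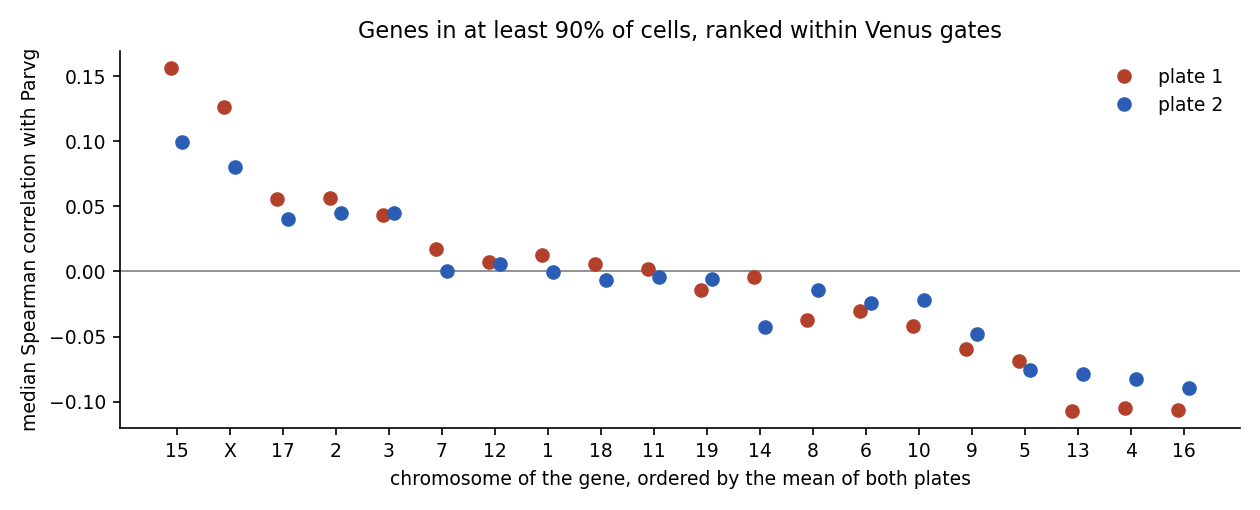
Median Spearman correlation with Parvg across cells, ranked within Venus gates, for genes in at least 90% of cells on each chromosome (horizontal axis), with 1 point per plate. Chromosomes 15 and X stand highest on both plates, at mean medians of 0.130 and 0.104.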

How the data were processed

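Raw gene counts per cell were deposited as whole numbers by the authors; STAR 2.7.11a, SAMtools, bedtools and HTSeq, with GRCm39 (mm39), are named per the submitters' processing notes, and strand use and molecular identifiers are not given in the sources used here. Fluorescence and scatter intensity per cell were deposited by the authors and used as given. Cells with at least 1000 genes, 0.1 of the plate median total and at most 25% mitochondrial counts were kept (762 of 768). No doublet caller was run on these sorted wells. Counts were summed per plate and gate, in 8 sums of 76042157 to 86612194 counts. The Venus trend, weights -3, -1, 1 and 3 divided by 10, was fitted by the quasi-likelihood F-test of edgeR 4.0.16 under R 4.3.3 (TMM, filterByExpr, plate as a term, 3 residual degrees of freedom, Benjamini-Hochberg at 0.05). Intervals of trends use these degrees of freedom alone, whereas the F-test adds prior ones, so the intervals are wider than the test implies. DESeq2 1.42.0 and limma 3.58.1 gave alternatives. The fit was tested on simulated data. Symbols matched 24902 features. Exon length per gene came from GENCODE M21. Named genes were the 6 members, the neighbours of Parvg, the 5 most like Parvg by either ranking, Lims2, Fermt2, Fermt3, Tln1, Pxn, Arhgef6, Arhgef7 and up to 6 called adhesion genes per direction whose mean log2 CPM was 3 or more. Members and lists were chosen with earlier results of these data known. Genes such as Thy1, and the summary by chromosome, were added after values were seen. A further group of the adhesion list is not reported here by name.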

Additional observations from a re-analysis of the deposited data

Results flagged for a closer look

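The Venus trend of Parvb had opposite signs on the plates, 0.029 log2 per gate on plate 1 and -0.0026 on plate 2. The difference between the plates was not tested, and both values are within 2 standard errors of 0 in the joint fit.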

How the results depend on the processing

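Parvg kept a positive trend under all 17 alternatives run, from 0.61 without gate 1 to 1.23 without the 5% of cells with the most Parvg, against 0.85. Removing those cells takes most from gates where few cells hold Parvg, so the larger value follows from that choice. Ilk and Lims1 kept their sign under 17 alternatives and did not pass in the 15 that give a test. Parva passed with DESeq2 (0.057) and with limma on mean log values (0.066). Parvb turned in sign with outer gates only (-0.00017) and ranged from -0.0026 to 0.029 with 1 plate left out, and Rsu1 turned to -0.016 without gate 1. The cause was not tested.

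The number of genes called went from 2843 to 1683 with no replicate block (the plate term left out), 1858 with the gate as a number, 1139 without gate 1 and 358 without gate 4. Adhesion genes called went from 13 to 8 with no replicate block, 2 without gate 1 and 4 without gate 4. Dropping a gate leaves 6 sums of cells. With no replicate block the call of no member changed.

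The change in the Parvg share was 62.6 points, and 45.2 at 3 or more counts, 10.5 at 10 or more, and 37.4 with cells with and without Thy1 weighted equally across gates. The mean correlation of Parvg with Parva turned from 0.205 to -0.089 among cells with Parvg. That with Ilk, 0.0026, turned to -0.020 with thinned counts, -0.024 among cells with Parvg and -0.0065 within Thy1 classes, and lay from -0.019 to 0.025 on single plates. Alternatives without a gate, without shallow cells and with Thy1 classes were chosen after seeing the data.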
